A study of Saccharomyces cerevisiae with 94 samples.

Results

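The transcripts of 10 hexose transporter family genes of the budding yeast Saccharomyces cerevisiae were followed through 1 synchronous cell cycle in 2 strains. The genes were chosen by name from the 6444 genes of the series: HXT1 to HXT7, HXT13, HXT15 and HXT17. All 10 passed the filter on low values (a mean normalised read count of at least 10 over all libraries), which kept 6414 genes. The study set a strain that overproduces limiting replication factors against its control, by RNA sequencing of 94 samples in 24 groups, 1 for each strain and time point. There were 4 libraries in 22 groups and 3 in each of the groups at 25 min, where culture 2 was not analysed here.

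The engineered strain, sml1Δ SSDDCS (SSDDCS from here on), is sml1_delta::HphNT by the labels (the study's strain list has HphMX as the marker). It carries extra copies of 6 replication factor genes under the galactose-inducible GAL1-10 promoter, in pairs on either side of it. Sld7 and Cdc45 were put in at leu2 (with LEU2 as the marker), SLD3-A and Dbf4-A at his3 (with HIS3), and Sld2 and Dpb11 at trp1 (with TRP1). The control strain, sml1Δ, is sml1_delta::URA3. Both lack SML1, which encodes an inhibitor of ribonucleotide reductase, and both are W303 MATa with the alleles ade2-1, ura3-1, his3-11, 15 and trp1-1, as well as leu2-3, 112, can1-100 and rad5-535. Cells grew in raffinose medium and were held in G1 with alpha factor, and galactose was given for 30 min before the G1 sample was taken. Both strains were then washed into galactose medium without pheromone and sampled at 11 further times up to 60 min, so that every culture changed from raffinose to galactose during the experiment. No sample without galactose was analysed here, and the sugar change cannot be told apart from the release. The strains differ in their marker genes as well as in the 6 factors.

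Hexose transporters are membrane proteins of the major facilitator superfamily that let glucose, fructose and mannose enter the cell down a concentration gradient. Yeast has a large family of them that differ in affinity, and it chooses among them by the sugar outside. When glucose is absent the repressor Rgt1, with Mth1 and Std1, binds HXT promoters, and the glucose sensors Snf3 and Rgt2 lift that repression. The repressor Mig1 shuts high-affinity transporter genes when glucose is plentiful, and the kinase Snf1 inactivates Mig1 when it is not. Galactose itself enters mainly through Gal2, a close relative.

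The labels and libraries were checked before the genes were described. The reads of all 6 factor genes separated the libraries of SSDDCS, always higher, from those of sml1Δ throughout the 12 times. Libraries held 8119387 to 21677438 reads in genes (median 10031425), and culture 1 of each strain was sequenced most deeply. When each library was set against the group means of its own strain, 78 of 94 were nearest to their own time point and 16 to another. Among these, the library of sml1Δ culture 4 labelled 50 min was nearest to 60 min, and the one labelled 60 min to 50 min. The differences of HXT2, HXT3, HXT5 and HXT6 at those times are therefore also given without that culture where they are described. Those of HXT7 and of the sum of HXT6 and HXT7 are given only with that culture included. Culture 3 of sml1Δ was nearest to the time before at 15, 20 and 25 min, as was culture 2 of SSDDCS at 35, 40, 45 and 50 min. Culture 3 of SSDDCS was nearest to the time after at 30, 35 and 40 min. How such offsets enter the strain differences was not tested, beyond leaving out each culture in turn. Values are normalised read counts, that is, reads divided by the library's size factor, and group values are mean ± SD over 4 libraries (3 at 25 min). Fewer cells with a transcript and less transcript per cell cannot be told apart in these bulk samples.

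Several of the genes are near copies of each other, which decides how many separate measurements they give. HXT6 (YDR343C, chromosome IV, 1159608 to 1161320) and HXT7 (YDR342C, chromosome IV, 1154216 to 1155928) each have a coding sequence of 1713 bases, and these differ at 3 positions. With HXT6's base first and positions counted from 1 at the first base of the start codon, the differences are T1632C, G1666A and T1677C. The stretch of 64 bases that holds them is shown here from the RefSeq sequence of R64 (minus strand, chrIV:1159635-1159698 and chrIV:1154243-1154306) with the differing bases in capitals.
HXT6: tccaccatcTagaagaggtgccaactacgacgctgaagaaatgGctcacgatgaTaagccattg
HXT7: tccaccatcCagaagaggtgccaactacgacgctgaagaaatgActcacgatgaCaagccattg
Of the stretches of 50 bases in either gene, only 4.93% occur once in the genome. HXT7 nevertheless had more reads than HXT6 in all 94 libraries, with a ratio of 1.03 to 1.36 (median 1.27), so the reads were not divided evenly between them. The ratio averaged 1.12 ± 0.03 in SSDDCS and 1.07 ± 0.04 in sml1Δ in G1, and 1.25 ± 0.05 in SSDDCS and 1.26 ± 0.06 in sml1Δ at 30 min.

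HXT13 (YEL069C, chromosome V, 21537 to 23231) and HXT17 (YNR072W, chromosome XIV, 772657 to 774351) have coding sequences of 1695 bases that differ at 76 positions. The differences crowd at the start, with 33 of them in the first 100 bases. The first 120 bases are shown from R64 (chrV:23112-23231, minus strand, and chrXIV:772657-772776, plus strand), again with differing bases in capitals.
HXT13: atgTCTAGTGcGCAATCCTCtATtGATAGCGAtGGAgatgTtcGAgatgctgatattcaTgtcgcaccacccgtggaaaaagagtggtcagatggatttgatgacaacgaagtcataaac
HXT17: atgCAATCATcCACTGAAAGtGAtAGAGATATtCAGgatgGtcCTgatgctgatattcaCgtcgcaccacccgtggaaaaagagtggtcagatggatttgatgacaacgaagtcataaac
Although 68.2% of the 50-base stretches of HXT13 and 69.8% of those of HXT17 occur once in the R64 genome, the libraries gave both genes almost the same number of reads. The counts were equal in 29 of 94 libraries, HXT13 had more in the other 65, and the largest gap was 10 reads. The squared difference over the sum averaged 0.0123, where reads divided at random between genes give about 1. HXT13 and HXT17 are therefore treated as 1 measurement, whose reads cannot be assigned to either locus. Values given below under the name HXT13 may stand for HXT13, HXT17 or both. HXT15 (YDL245C, chromosome IV, 11657 to 13360) shares 93.96% of its 50-base stretches with HXT16, which was not analysed here, and 9.31% with HXT13, and few occur once. Its reads did not track those of HXT13 (Pearson r 0.33 over 24 group means that share their libraries, given as a description). Values given below under the name HXT15 may stand for HXT15, HXT16 or both.

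**Figure D1:**
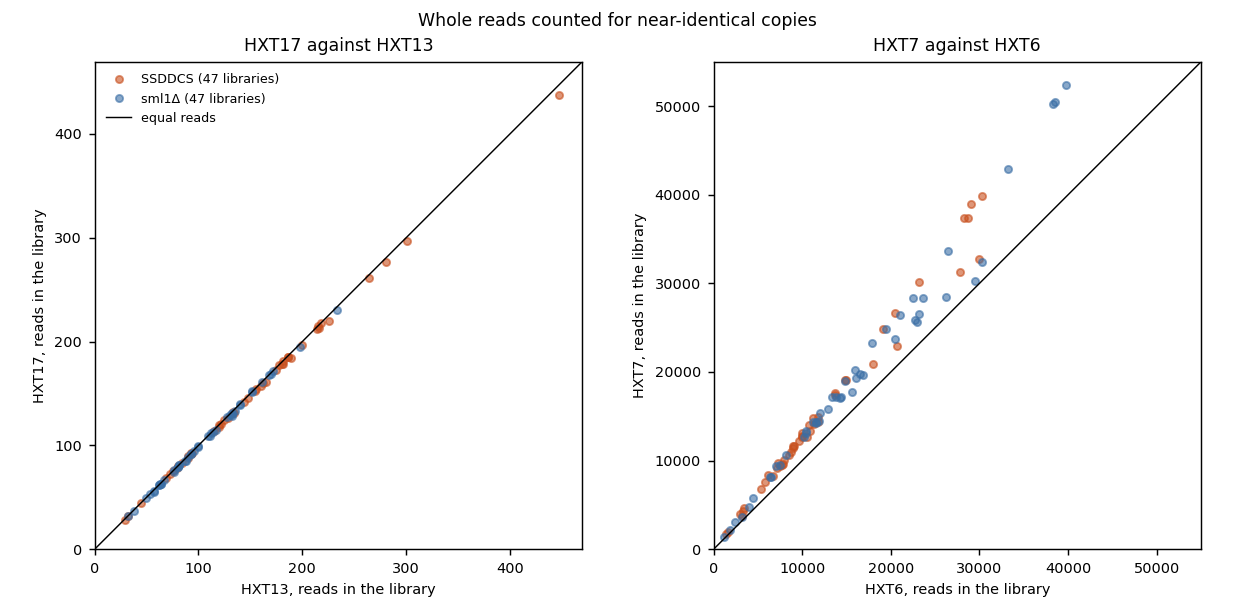
Whole reads counted for HXT17 against HXT13 (left) and for HXT7 against HXT6 (right), 1 point per library, SSDDCS in orange and sml1Δ in blue, with the line of equal reads. HXT13 and HXT17 lie on the line, with a largest gap of 10 reads, whereas HXT7 lies above the line in all 94 libraries.

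Levels were compared between genes per 1000 bases of coding sequence. In SSDDCS in G1 the order was led by HXT7 (15985 ± 5722 normalised reads per 1000 bases) and HXT6 (14294 ± 5217), whose libraries overlapped, and then HXT3 (1678 ± 609), HXT2 (386 ± 86.4) and HXT15 (282 ± 21.1), each apart from the next. Below them came HXT5 (135 ± 30.0), HXT13 (106 ± 30.5), HXT17 (104 ± 29.2), HXT4 (81.4 ± 19.3) and HXT1 (68.4 ± 11.4), in which each overlapped its neighbour. In sml1Δ in G1 the leaders were again HXT7 (17290 ± 6249) and HXT6 (16254 ± 6222), followed by HXT3 (1896 ± 658) and HXT2 (1101 ± 563), while HXT4 (330 ± 229) stood above HXT15 (256 ± 31.8) with overlap. At 60 min HXT7 and HXT6 still led in both strains, with HXT1 last in both, at 61.1 ± 9.35 in SSDDCS and 52.0 ± 7.25 in sml1Δ. HXT6 and HXT7 together made up 91.5% of the normalised reads of the 10 genes in SSDDCS and 89.6% in sml1Δ in G1. The 10 genes took 0.493% ± 0.170 of all normalised reads in SSDDCS and 0.570% ± 0.214 in sml1Δ in G1, and 0.104% ± 0.054 in SSDDCS and 0.0975% ± 0.0176 in sml1Δ at 5 min. For scale, GAL2 stood at 32948 ± 5588 per 1000 bases in SSDDCS and 28779 ± 2869 in sml1Δ in G1.

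**Figure D2:**
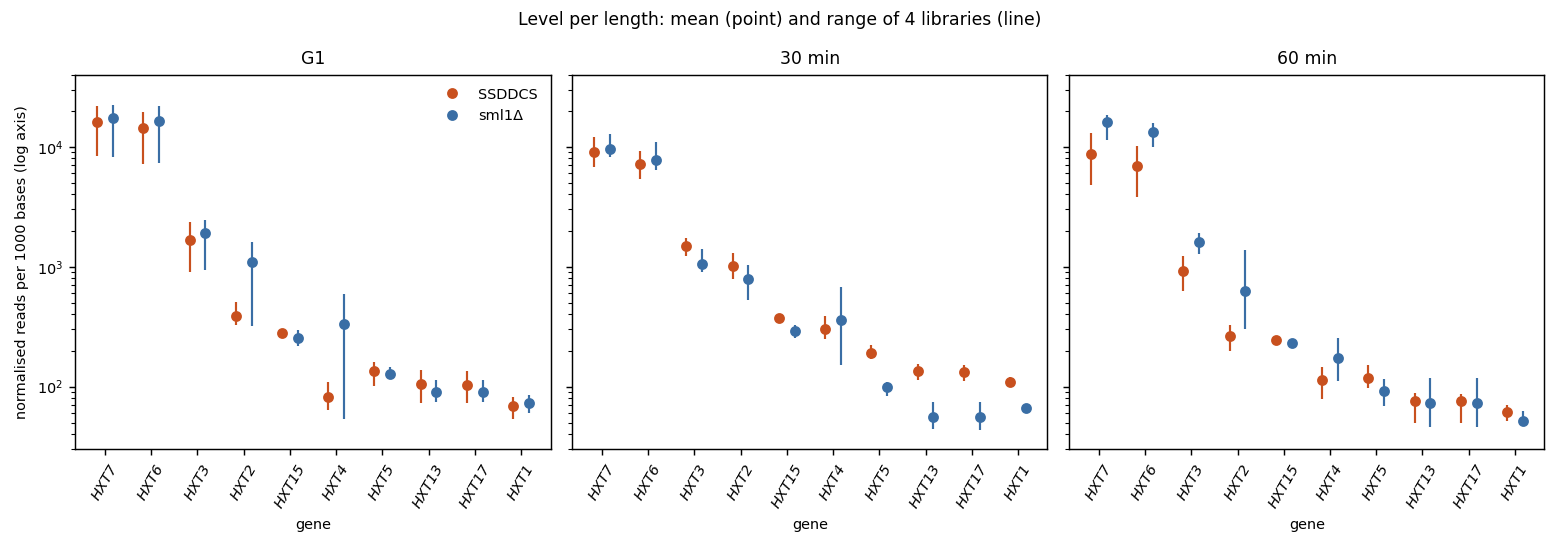
Normalised reads per 1000 bases of coding sequence (log axis) for the 10 genes in G1, at 30 min and at 60 min, SSDDCS in orange left of sml1Δ in blue. Points are means and lines the range of 4 libraries. HXT7 and HXT6 led at all 3 times. At 30 min the ranges of HXT13, HXT17, HXT15, HXT5 and HXT1 did not overlap between the strains. Limma called these 5 genes higher in SSDDCS there, as it did 17% of all genes. The share of all genes whose libraries did not overlap is not given, here or below.

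All 10 genes changed over time in both strains by limma's F-test at an adjusted p below 0.01, as did 86.8% of all genes tested in SSDDCS and 83.5% in sml1Δ. HXT2 in sml1Δ was no longer called by DESeq2 (adjusted p 0.0113) or without sml1Δ culture 2 (limma adjusted p 0.0684) or 3 (0.0187), nor were HXT6 and HXT7 in SSDDCS without SSDDCS culture 4 (0.0428 and 0.0682). Relative to G1, 5 genes fell at 5 min in SSDDCS and 5 in sml1Δ, the same 5 in both (HXT3, HXT6, HXT7, HXT13 and HXT17). By the same test 27.7% of all genes were lower at 5 min in SSDDCS and 25.6% in sml1Δ. HXT6 and HXT7 share 95.1% of their 50-base stretches, and HXT13 and HXT17 had nearly the same reads. The 5 names are therefore fewer than 5 separate measurements. All times of a strain share its G1 libraries, so the comparisons with G1 are not separate tests. At 30 min 5 genes were higher than in G1 in SSDDCS (HXT1, HXT2, HXT4, HXT5 and HXT15), against 27.2% of all genes. In sml1Δ 2 were lower at 30 min (HXT13 and HXT17), against 26.8% of all genes.

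**Figure D3:**
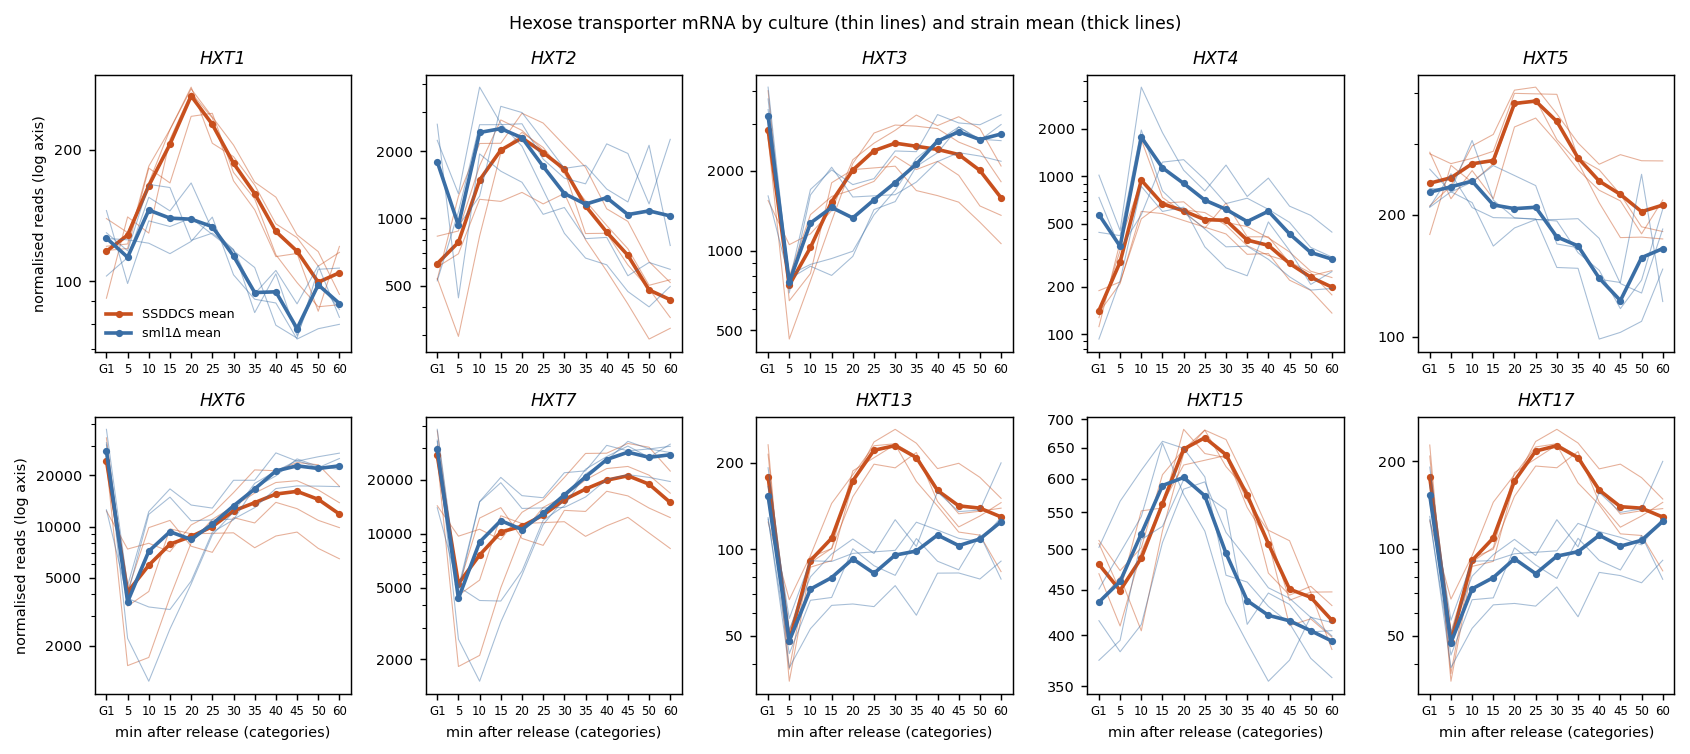
Normalised reads (log axis) of each gene at the 12 time points, shown as equally spaced categories, SSDDCS in orange and sml1Δ in blue. Thin lines are single cultures and thick lines strain means. HXT1 and HXT5 of SSDDCS stand above sml1Δ in mid-course, HXT13 and HXT17 likewise, and HXT6 and HXT7 fall at 5 min in both strains.

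The strains were then compared at each time point, to ask whether transporter transcripts differed where replication factors were in excess. Of 120 comparisons (10 genes at 12 times), limma called 23, all higher in SSDDCS. The called genes were 1 at 15 min (against 1.84% of all genes called higher), 4 at 20 min (against 10.2%), 4 at 25 min (against 12.6%), 5 at 30 min (against 17%), 5 at 35 min (against 14.7%), 2 at 40 min (against 10.7%) and 2 at 45 min (against 8.19%). Since HXT13 and HXT17 are 1 measurement, the 5 at 30 min stand for 4. Both were called at 20, 25, 30 and 35 min, so the 23 calls and the counts at those times include this measurement under both names. So do the other counts of the 10 genes in which both are called. No gene of the 10 was called in G1 (against 0.655% of all genes called in either direction) or at 5 min (against 0.421%), 10 min (against 0.343%), 50 min (against 9.2%) and 60 min (against 5.35%). At those 5 times the genes of the 10 with an unadjusted limma p below 0.05 numbered 2, 0, 0, 2 and 4. Of the 10, edgeR and DESeq2 each called 1 in G1 (HXT4) and 0 at the others. The shares of all genes under these rules are not given, so these counts do not set the 10 genes apart. The median difference of the 10 genes (log2 SSDDCS minus log2 sml1Δ, of normalised reads + 1, here and throughout) was 0.44 at 30 min, where that of all genes was -0.04. At 30 min limma called 1091 genes higher and 917 lower over all genes, which became 1189 and 637 with equal library totals and 886 and 1142 after quantile normalization. No called difference of the 10 genes changed sign under either.

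Limma's F-test on the 11 strain-by-time terms, which asks whether strains diverge after G1, called 4 of the 10 genes (22.3% of all genes): HXT1 (adjusted p 1.79e-06), HXT5 (0.00109), HXT13 (0.00107) and HXT17 (0.00114). Only HXT1 of these 4 stayed called when culture 2 of SSDDCS, culture 2 of sml1Δ, or both cultures numbered 1 were left out. The limma adjusted p of the other 3 was then 0.0106 to 0.0404.

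**Figure D4:**
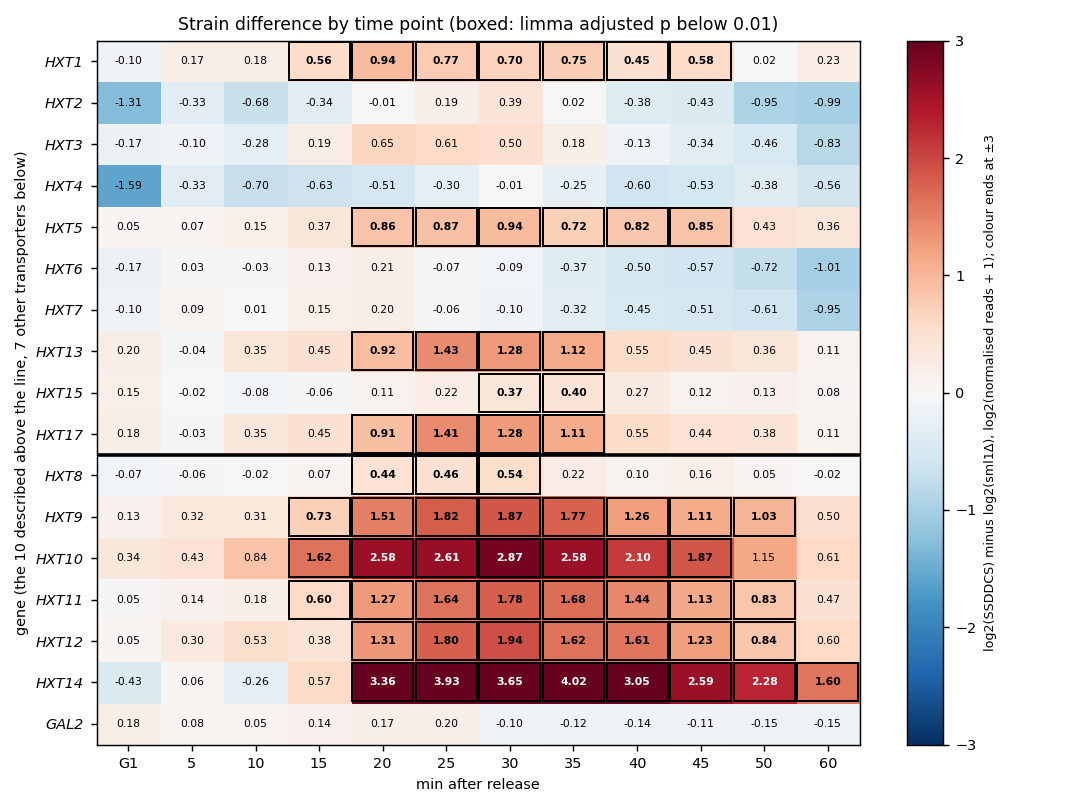
Difference between the strains (log2 SSDDCS minus log2 sml1Δ of normalised reads + 1) for the 10 genes, above the black line, and 7 other transporter genes, below it, at 12 time points. Boxes mark a limma adjusted p below 0.01. Boxes lie between 15 and 45 min for the 10 genes, and the largest value among them is 1.43, for HXT13 at 25 min.

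HXT1 (YHR094C, chromosome VIII, 290913 to 292625) encodes a low-affinity transporter known for its induction by high glucose. At 20 min it had 269.5, 275, 238 and 278 normalised reads in the 4 SSDDCS cultures, against 168, 139.5, 123 and 124 in the sml1Δ cultures, so the lowest SSDDCS library stood above the highest of sml1Δ. Its mean was 265 ± 18.3 in SSDDCS and 139 ± 20.8 in sml1Δ, and they differed by 0.94 (SE 0.13) with a limma adjusted p of 1.28e-08. HXT1 was called higher at 7 consecutive time points, from 15 to 45 min, with differences of 0.45 to 0.94, and the strains did not overlap at any of them. Its call at 15 min (0.56) was lost without SSDDCS culture 2 or 4 or without sml1Δ culture 3, and that at 40 min (0.45) without any of 4 single cultures (culture 2 or 4 of SSDDCS, 2 or 3 of sml1Δ). After quantile normalization the calls at 15, 30, 35, 40 and 45 min were lost (0.45, 0.38, 0.40, 0.12 and 0.27), and those at 20 and 25 min held. The SSDDCS mean peaked at 20 min and was 1.18 above its G1 value on the log2 scale then (SE 0.13, limma adjusted p 5.39e-13), while the sml1Δ mean was highest at 10 min, at 145 ± 19.6.

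HXT3 (YDR345C, chromosome IV, 1162957 to 1164660), the other low-affinity transporter, is expressed over a broad range of glucose levels and lies next to HXT6. HXT3 shares 13.1% of its 50-base stretches with HXT6 and the same share with HXT7, and its mean levels over the 24 strain and time groups had a Pearson r of 0.94 with those of each. How many of the reads given to HXT3 come from HXT6 or HXT7 was not tested. At 20 min it had 2206, 2024, 1699 and 2136 normalised reads in SSDDCS, against 951, 1595, 1776 and 995 in sml1Δ, and the strains overlapped through 1 library of sml1Δ. By limma the difference of 0.65 (SE 0.28) was not called (adjusted p 0.0730). At 60 min the order was the opposite, with 2089, 1063, 1360 and 1821 in SSDDCS, against 2604, 2177, 3262 and 2997 in sml1Δ. These libraries did not overlap, and limma gave -0.83 (SE 0.28, adjusted p 0.0438), which misses the threshold. Without sml1Δ culture 4 the difference at 60 min was -0.79 (limma adjusted p 0.122). HXT3 was lower at 5 min than in G1 in both strains, at 740.0 ± 249.6 in SSDDCS and 760.5 ± 49.9 in sml1Δ (limma adjusted p 1.10e-08 and 4.08e-09 for the change from G1).

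HXT1 and HXT3 hold the most matches of the 10 genes to CGGANNA, the sequence preferred by Rgt1, in the 500 bases before the start codon. On both strands HXT1 has 4 and HXT3 has 5. The pattern was present in 7 of the 10 windows and in 42.0% of 6000 windows of the same length before protein-coding genes. Parts of both, with 3 of the 4 matches of HXT1 and all 5 of HXT3, are shown from R64, read 5′ to 3′ towards the gene with the matches in capitals (chrVIII:293016-293125 for HXT1 and chrIV:1164971-1165110 for HXT3, both on the minus strand).
HXT1 upstream: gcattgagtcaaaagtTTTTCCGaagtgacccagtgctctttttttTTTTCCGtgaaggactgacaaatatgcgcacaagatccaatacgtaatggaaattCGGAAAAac
HXT3 upstream: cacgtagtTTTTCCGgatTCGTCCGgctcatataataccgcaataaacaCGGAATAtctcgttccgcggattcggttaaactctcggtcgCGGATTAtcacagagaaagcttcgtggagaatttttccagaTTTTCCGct
HXT1 was called between the strains at 7 time points and HXT3 at 0. Whether the matches have to do with the strain differences was not tested. A match in letters is not evidence that the protein bound there.

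HXT2 (YMR011W, chromosome XIII, 288079 to 289704) and HXT4 (YHR092C, chromosome VIII, 287081 to 288811) encode transporters induced by low glucose. Their group means moved together (Pearson r 0.89 over 24 means, as a description). In G1 HXT4 had 111.5, 136.7, 127 and 188.5 normalised reads in SSDDCS, against 93.0, 441.5, 1018 and 735 in sml1Δ. Culture 1 of sml1Δ was the lowest of all 8, and the other 3 cultures of sml1Δ were above every SSDDCS culture. The log2 difference was -1.59 (SE 0.45) and was not called (limma adjusted p 0.0589). With cultures of the same number as a block, limma called it (adjusted p 0.00317, against 1.45% of all genes called in that fit), as it did without sml1Δ culture 1, where the difference was -2.31 (adjusted p 7.74e-05). HXT2 in G1 stood in the same way, at 533, 832, 606 and 539 in SSDDCS, against 526, 2233, 2637 and 1767 in sml1Δ. Its difference of -1.31 (SE 0.45, limma adjusted p 0.208) became -1.82 and was called without sml1Δ culture 1 (limma adjusted p 0.00770).

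After release HXT4 climbed to its highest mean at 10 min in both strains, 946 ± 538 in SSDDCS and 1770 ± 1407 in sml1Δ. By limma the SSDDCS mean was 2.61 above G1 on the log2 scale (adjusted p 7.51e-07). The sml1Δ mean was 1.71 above G1 (limma adjusted p 0.000770). Within each strain culture 3 was highest at 10 min, at 1710 in SSDDCS and 3678 in sml1Δ. HXT2 was highest at 20 min in SSDDCS (2289 ± 697) and at 15 min in sml1Δ (2519 ± 646), and only the SSDDCS mean was called above G1 at its peak. In sml1Δ HXT2 ended at 2257, 496, 592 and 756 at 60 min, with culture 1 far above the rest, against 517, 360, 322 and 532 in SSDDCS. At -0.99 (SE 0.45) limma did not call HXT2 there (adjusted p 0.180), and it was -0.52 without sml1Δ culture 1 (limma adjusted p 0.492) and -1.04 without sml1Δ culture 4. At 50 min HXT2 was -0.95 (limma adjusted p 0.151), and -0.53 without sml1Δ culture 4, whose HXT2 was 2123 at 50 min and 756 at 60 min.

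**Figure D5:**
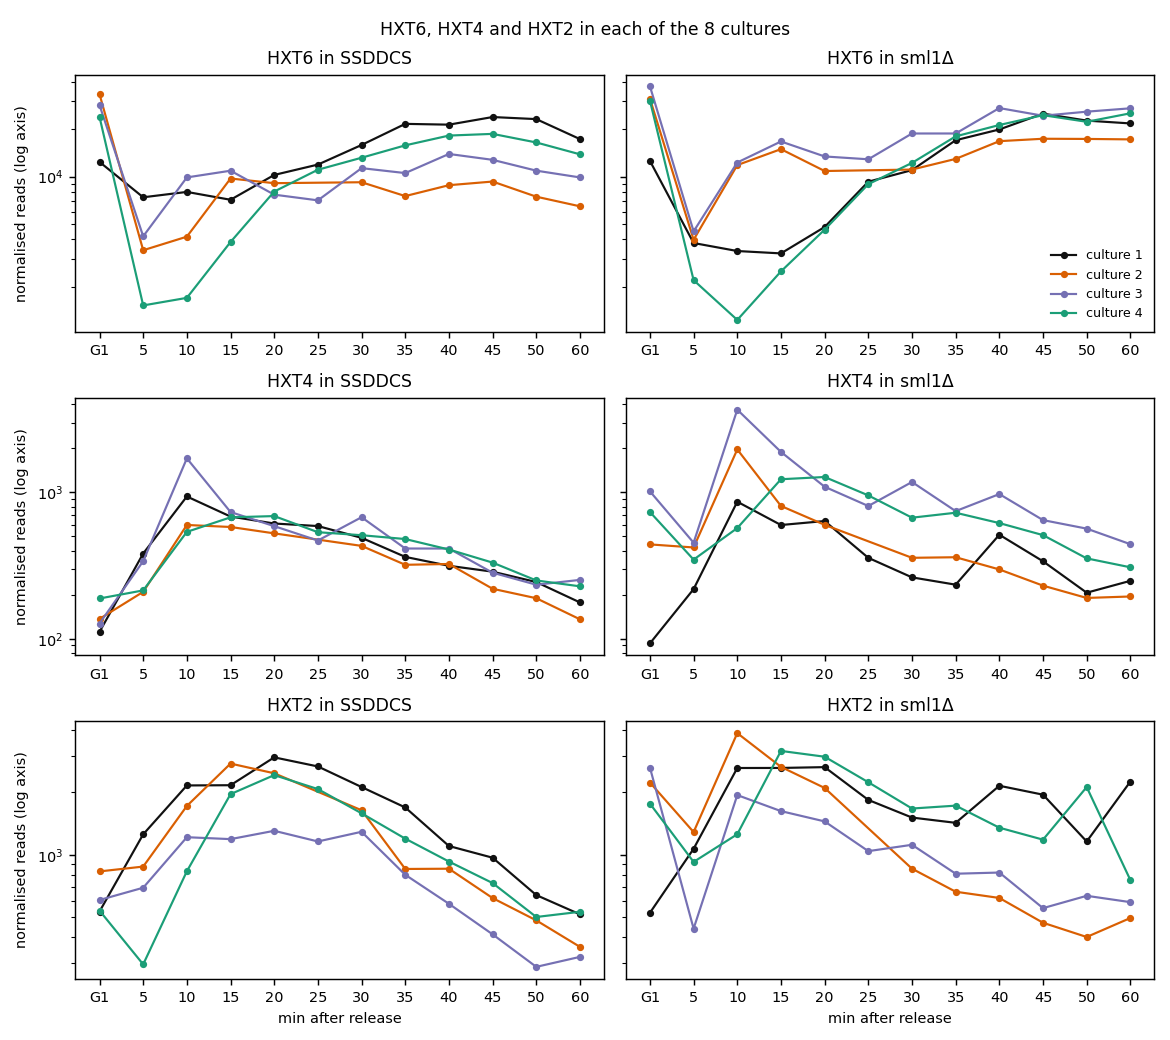
Normalised reads (log axis) of HXT6, HXT4 and HXT2 in each culture at the 12 time points, SSDDCS on the left and sml1Δ on the right, with colours for culture numbers 1 to 4. Culture 1 was lowest for HXT6 in G1 in both strains, and culture 4 lowest at 10 min in both, at 1704 in SSDDCS and 1235 in sml1Δ.

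HXT6 and HXT7 encode nearly identical high-affinity transporters that are known to be repressed by high glucose and expressed on poor carbon sources. In G1 HXT6 had 12383, 33298, 28372 and 23892 normalised reads in SSDDCS, against 12571, 31160, 37363 and 30278 in sml1Δ. Culture 1 was about as low in each strain, and the strains overlapped (log2 difference -0.17, SE 0.49, limma adjusted p 1.00). At 5 min HXT6 stood at 7391, 3414, 4182 and 1526 in SSDDCS, against 3793, 3978, 4494 and 2206 in sml1Δ, and every culture was below its own G1 value. The fall from G1 was -2.69 on the log2 scale in SSDDCS (limma adjusted p 2.50e-06) and -2.88 in sml1Δ (limma adjusted p 6.35e-07). HXT7 fell by 2.53 in SSDDCS and fell by 2.72 in sml1Δ (SE 0.49 in both).

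At 15 min HXT6 was 7128, 9721, 10892 and 3850 in SSDDCS and 3260, 14921, 16685 and 2507 in sml1Δ, with culture 4 lowest and culture 3 highest in each. By 60 min it was 17275, 6480, 9876 and 13834 in SSDDCS, against 21710, 17203, 27068 and 25167 in sml1Δ, so that only culture 1 of SSDDCS reached into the sml1Δ range, and SSDDCS was below sml1Δ in all 4 pairs of cultures with the same number, as it was for HXT7. The log2 difference was -1.01 for HXT6 (SE 0.49, 95% interval -1.99 to -0.04, limma adjusted p 0.219, 0.145 with the replicate block, and -0.96 without sml1Δ culture 4) and -0.95 for HXT7 (SE 0.49, limma adjusted p 0.265, and 0.183 with the block). Added together the pair averaged 26843 ± 10756 in SSDDCS and 50414 ± 9703 in sml1Δ at 60 min, and limma put them -0.98 apart (adjusted p 0.243). Neither gene nor their sum was called at any time point, and at 30 min the interval for HXT6 ran from -1.07 to 0.89. Set base by base from the start codon with no gaps, 42.0% of 500 upstream bases of the pair are identical, and no alignment with gaps was made.

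HXT5 (YHR096C, chromosome VIII, 294669 to 296447) encodes a transporter of moderate affinity known for its expression when growth is slow. At 30 min it had 307, 397, 302 and 355 normalised reads in SSDDCS, against 148, 193, 195 and 169.5 in sml1Δ, with no overlap. At 0.94 (SE 0.17) this was its largest difference, with a limma adjusted p of 4.36e-06. It was called higher at 6 time points, 20 to 45 min, with differences of 0.72 to 0.94 and no overlap between strains. All 6 calls held without any single culture. At 50 min the difference was 0.43 (limma adjusted p 0.0760), and 0.68 without sml1Δ culture 4 (limma adjusted p 0.00196), in which HXT5 was 252 at 50 min and 122 at 60 min. HXT5 has 4.05% of its 50-base stretches in common with HXT1, its neighbour on chromosome VIII, and the pair had similar group means over time (Pearson r 0.91 over 24 means, as a description).

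HXT5 is 1 of 4 genes of the 10 with CCCCT, the stress response element, in the 500 bases before the start codon, on either strand, as have 34.1% of all such windows. Its 2 matches are in capitals in the stretch shown (R64, chrVIII:296738-296927, minus strand).
HXT5 upstream: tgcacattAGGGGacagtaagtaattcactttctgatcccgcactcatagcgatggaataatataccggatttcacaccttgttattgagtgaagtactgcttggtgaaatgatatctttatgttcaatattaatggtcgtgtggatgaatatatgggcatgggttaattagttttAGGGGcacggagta

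HXT13, HXT15 and HXT17 lie within 25 kb of a chromosome end, as do 286 of the 5844 placed genes, and their products are known to carry polyols such as mannitol and sorbitol. At 25 min HXT13 had 229, 198 and 237 normalised reads in SSDDCS (cultures 1, 3 and 4), against 87.8, 96.8 and 63.2 in sml1Δ, so that every SSDDCS library stood far above all of sml1Δ. HXT13 differed by 1.43 (SE 0.27) with a limma adjusted p of 1.48e-05, the largest difference of the 10 genes, and that of HXT17, from nearly the same reads, was 1.41. HXT13 was called higher at 20, 25, 30 and 35 min, with differences of 0.92, 1.43, 1.28 and 1.12. Its call at 20 min was lost after quantile normalization (0.64) and without both cultures numbered 1 (0.94). The sum of HXT13, HXT15 and HXT17, which may count the same reads again, was not called at 20 min either (0.34, limma adjusted p 0.0119). That sum was called at 25, 30, 35 and 40 min (0.59, 0.69, 0.65 and 0.37, limma adjusted p at most 0.00475). HXT13 fell at 5 min in both strains, to 47.85 ± 14.6 in SSDDCS and 48.04 ± 8.53 in sml1Δ, against G1 means of 179 ± 51.7 in SSDDCS and 154 ± 31.3 in sml1Δ. By 30 min HXT13 was back at 230 ± 28.6 in SSDDCS, 0.40 above G1 (limma adjusted p 0.127), and at 95.6 ± 23.3 in sml1Δ, which was -0.69 relative to G1 (limma adjusted p 0.00746).

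HXT15 moved less. At 35 min it had 568, 557, 594 and 582 normalised reads in SSDDCS, against 459, 411, 487 and 392 in sml1Δ, with no overlap, and was called at 0.40 (SE 0.10, limma adjusted p 0.000520). It was also called at 30 min (0.37), though not from the libraries of that time point alone (limma adjusted p 0.0113). At 25 and 40 min the libraries did not overlap either, but HXT15 was not called (0.22, limma adjusted p 0.119, and 0.27, limma adjusted p 0.0231). In sml1Δ HXT15 rose as well, to 602 ± 32.9 at 20 min, 0.47 above G1 (limma adjusted p 1.54e-05), against 648 ± 25.2 in SSDDCS at that time, 0.43 above G1 (limma adjusted p 6.47e-05).

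The upstream windows of HXT13 and HXT17, set base by base from the start codon with no gaps, are identical at 31.6% of 500 bases, and similarity at a shifted position was not tested. Both hold the Mig1 core CCCCGC or CCCCAC near their far end. This core, searched on both strands, was in 8 of the 10 windows and in 13.55% of the 6000. HXT13 has 3 matches and HXT17 has 2, which are in capitals in the stretches shown, the farthest 70 bases of each window (R64, chrV:23662-23731, minus strand, and chrXIV:772157-772226, plus strand). The first 2 matches of HXT13 abut.
HXT13 upstream: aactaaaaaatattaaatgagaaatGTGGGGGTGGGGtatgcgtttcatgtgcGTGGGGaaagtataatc
HXT17 upstream: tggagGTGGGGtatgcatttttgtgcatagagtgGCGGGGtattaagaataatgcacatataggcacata

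The genes closest in pattern over the 24 group means were named by Pearson's r, as a description only. They were SCM3 (0.93) and YSP3 (0.92) for HXT1, YOL162W (0.97) and YSP3 (0.97) for HXT5, AIM39 (0.96) for HXT3, PEX19 (0.90) for HXT2, SAR1 (0.86) for HXT4, YFR052C-A (0.97) for HXT6, RRT6 (0.97) for HXT7, YNL105W (0.97) for HXT13 and HXT17, and ROF1 (0.96) for HXT15.

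The other genes of the family and of sugar sensing were taken from lists. Of 7 other transporters, 6 were called higher at 20, 25 and 30 min (against 10.2%, 12.6% and 17% of all genes) and 0 lower, with a median difference of 1.87 at 30 min. HXT14, whose product transports galactose, had 110, 132, 88.7 and 122 normalised reads at 30 min in SSDDCS, against 4.92, 12.8, 7.79 and 8.18 in sml1Δ (3.65, SE 0.38, limma adjusted p 9.27e-13). HXT10 differed by 2.87, HXT12, a pseudogene, by 1.94 and HXT9 by 1.87. HXT9 shares 57.6% of its 50-base stretches with HXT11 and 17.5% with HXT12, so their reads may be shared. GAL2 averaged 59391 ± 2916 in SSDDCS and 64768 ± 14309 in sml1Δ at 30 min, and was not called (-0.10, limma adjusted p 0.714). Whether the 10 genes differed less than these 7 was not tested.

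Of 18 genes of glucose sensing and repression, 3 were called higher (against 21.8% of all genes) and 5 lower (against 21.7%) at 1 or more time points, and 10 at none. MIG3, a relative of Mig1, was higher from 20 to 50 min (1.07 at 30 min, limma adjusted p 1.71e-06), and RGT2, the low-affinity glucose sensor, from 20 to 30 min (0.50 at 30 min, limma adjusted p 0.00191). GPR1, a receptor for glucose outside the cell, differed by 0.23 at 30 min (limma adjusted p 0.00150). SNF4, the activating subunit of the Snf1 kinase, was lower from 25 to 45 min (-0.61 at 30 min, limma adjusted p 6.79e-08), and GRR1, which targets Mth1 and Std1 for degradation, from 20 to 45 min (-0.26 at 30 min, limma adjusted p 0.000515). SNF1, the kinase itself, was lower at 35 and 40 min (-0.43 and -0.46), and TUP1, a corepressor that works with Mig1, at the same times (-0.33 and -0.29). The fifth was RGT1, at 50 min. SNF3, MTH1 and STD1 were called at no time point, nor were MIG1 and MIG2, though with the replicate block MIG1 was called at 50 min (-0.45, limma adjusted p 0.00242) and MIG2 at 30 min (0.50, limma adjusted p 0.00405). Among 10 hexose phosphorylation and sugar use genes, 2 were called higher and 3 lower at 1 or more time points, and 5 at none. Of all genes 21.8% were called higher and 21.7% lower at 1 or more time points. SOR2, a sorbitol dehydrogenase, was higher from 20 to 50 min (1.51 at 30 min, limma adjusted p 4.75e-10). DSF1, a mannitol dehydrogenase gene, was higher at 30 min (1.43, limma adjusted p 0.00591). SOR1 and MAN2, also on this list, were not analysed here. Sequence shared by SOR2 or DSF1 with other genes was not checked, so whether their values hold reads of other loci was not tested. PGI1, PFK1 and PFK2, enzymes of upper glycolysis, were lower at 60 min (-0.43, -0.36 and -0.47), where 175 of 6414 genes were called lower. PFK2 was also lower at 50 min, where 237 genes were called lower. These differences were not recomputed without sml1Δ culture 4.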

How the data were processed

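Total RNA of S. cerevisiae cultures was sequenced in 94 libraries. The deposited signal is the number of reads per gene that the authors divided by 1 DESeq2 size factor per library. Their sources name cutadapt, TopHat2 2.0.6 and sacCer3 (the labels) and bowtie2 (the methods). How reads matching several genes were counted, and whether strand was used, was not given in the sources used here. All values returned whole reads within 0.001 of a read once the size factor was undone, and library totals ran from 8119387 to 21677438.

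Groups came from the sample titles. Another 2 columns matched no sample and were not used. Values were analysed as log2(value + 1) in limma 3.58.1 (R 4.3.3) with 24 strain-by-time means and a mean-variance trend, for the 6414 genes that averaged 10 or more (30 did not). Calls had a two-sided Benjamini-Hochberg adjusted p below 0.01 over all genes at a time point. The replicates are separately numbered cultures, and nothing in the labels says more of their origin. The p-values measure the spread between libraries within a strain and time point, pooled over the 24 groups. The main fit took all 94 libraries as independent, though they come from 8 cultures sampled over time (correlation within cultures 0.38). Comparisons between times in that fit therefore ignore which libraries share a culture. Cultures of the same number deviated together in both strains (r 0.51, 0.22, 0.23 and 0.29, against -0.41 to 0.12 for unlike numbers), so the numbers were taken as pairs, and a fit with the number as a block was an alternative.

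Alternatives were other pseudocounts (0.1 and 5), no filter or a mean of at least 50, equal library totals, quantile normalization, edgeR 4.0.16 and DESeq2 1.42.0 on the recovered reads, a correlation within cultures, libraries of the time point alone, near-identical copies summed (HXT13 and HXT17 may then count the same reads again), and each culture left out in turn. Leaving out both cultures numbered 1 was chosen after seeing the data. The scripts were tested on simulated data. Sequences and positions are from RefSeq R64, read in Python 3.11.15.

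The members and lists were chosen with earlier results of these data known. All 10 genes are described. From 3 lists (other transporters, glucose sensing and repression, hexose phosphorylation and sugar use) up to 4 called genes of each sign were given by size at 30 min, and GAL2, the fifth lower sensing gene and the other named sensing genes were added after their values were seen.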

Additional observations from a re-analysis of the deposited data

Results flagged for a closer look

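For 4 genes the strain difference after G1 departed from that in G1, by limma's F-test: HXT1 (adjusted p 1.79e-06), HXT5 (0.00109), HXT13 (0.00107) and HXT17 (0.00114). In 12 of 220 groups of 4 libraries 1 library stood far from the other 3, where chance marks about 1 in 20 groups. HXT13 and HXT17, which are 1 measurement, were lowest in SSDDCS culture 2 at 60 min (83.7 normalised reads for each). HXT5 was highest in SSDDCS culture 4 at 50 min (272). The others were libraries of sml1Δ. HXT1 was lowest in culture 3 at 30 min (103.5) and highest in culture 1 at 45 min (88.9). HXT2 was highest in culture 1 at 60 min (2257). HXT3 was lowest in culture 2 at 45 min (2346). HXT5 was highest in culture 1 at 5 min (252.7) and in culture 4 at 20 min (250.2). HXT6 was highest in culture 3 at 30 min (18745) and lowest in culture 2 at 45 min (17362). HXT7 was lowest in culture 4 at 5 min (2584).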

How the results depend on the processing

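Of 470 recomputed values for the 23 called differences, 447 stayed called in the same direction, 23 were no longer called and 0 changed sign. Of 264 for 13 uncalled differences (among them HXT2, HXT3 and HXT6 at 60 min), 253 stayed uncalled and 11 became called. The count of calls over the 12 time points was 16 after quantile normalization, 19 with the libraries of a time point alone (losing HXT1 at 15, 40 and 45 min and HXT15 at 30 min), and 21 to 25 with 1 culture left out. It was 24 by edgeR, by DESeq2 and with the replicate block, which pairs cultures of the same number and changed no other call between the strains among the 10 genes than that of HXT4 in G1. Against G1 the block added 8 calls of the 10 genes and lost 0, none at 5 or 30 min, and between the strains it added 17 calls in the other lists. The count at 30 min was 5 whichever culture was left out. The F-test for divergence after G1 called 4 genes, 1 without both cultures numbered 1, and 1 to 5 with 1 culture left out. HXT15 (limma adjusted p 0.0254 in the main fit) was called as well with equal library totals (limma adjusted p 0.00324). Divergence of HXT15 was also called by edgeR (adjusted p 0.00978) and DESeq2 (adjusted p 0.00585). A correlation within cultures added HXT15 (limma adjusted p 0.00506) and HXT3 (limma adjusted p 0.00286, against 0.0341 in the main fit). The F-test over time called 8 to 10 genes in SSDDCS and 9 to 10 in sml1Δ with 1 culture left out. It lost HXT6 and HXT7 in SSDDCS without culture 4 of SSDDCS (limma adjusted p 0.0428 and 0.0682), and HXT2 in sml1Δ without culture 2 or 3 of sml1Δ (0.0684 and 0.0187) and by DESeq2 with all cultures (adjusted p 0.0113). The cause of these changes was not tested. HXT6 and HXT7 cannot be told apart well, and with a standard error of 0.49 for their log2 difference only large differences could be called.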
